A study of Homo sapiens with 3 samples.

Results

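The replication-dependent histone genes on the short arm of chromosome 6 form the largest histone gene cluster of the human genome, and its chromatin was described here in SC1 cells, a human cell line labelled as diffuse large B-cell lymphoma (DLBCL). Members were all intervals of both deposited peak lists that overlap the 1.9 Mb from position 26000000 to 27900000 on hg19. This gave 207 of 215598 CREBBP peaks and 50 of 18263 H3K27ac regions on chromosomes 1 to 22 and X. The groups were a chromatin immunoprecipitation (ChIP) with an antibody to CREBBP, a ChIP for histone H3 acetylated at its lysine 27 (H3K27ac), and an input without antibody, which was not analysed here. Each group held 1 sample of the same line, and the labels give its growth medium but no genotype for CREBBP, no treatment and no time. The words DMSO and rep2 in the peak names are not explained by the labels. With 1 sample per group no value has a replicate error, and no difference below was tested. The window was taken as a western histone block (26 to 26.3 Mb), a middle stretch (26.3 to 27.1 Mb) and an eastern histone block (27.1 to 27.9 Mb), and each interval was placed by its midpoint.

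Replication-dependent histone genes encode the core histones H2A, H2B, H3 and H4 and the linker histone H1, and are transcribed mainly in S phase, when new DNA has to be packaged. They lack introns, and their transcripts end in a stem-loop in place of a poly(A) tail. CREBBP is a lysine acetyltransferase and coactivator that, with its paralog EP300, places H3K27ac, found at promoters and enhancers in use. The mark thus sits on a protein that some genes of this window encode. Between the histone genes lie transfer RNA (tRNA) genes, which RNA polymerase III transcribes, and butyrophilin genes, which encode immunoglobulin-like membrane proteins.

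In the gene order of the RefSeq table of GRCh38.p14, the western run from H1-1 to H4C8 held 32 protein-coding histone genes, namely 5 of H1, 4 of H2A, 8 of H2B, 7 of H3 and 8 of H4. The stretch between the runs held no histone gene, 47 tRNA genes and 6 butyrophilin genes. Of these tRNA genes, 13 came before BTN3A2, the first butyrophilin gene. The eastern run from H2BC11 to H2BC17 held 21 histone genes in separate groups of 5 and 16, with 51 tRNA genes and 5 protein-coding genes between H2AC12 and H2BC13. That table is of another assembly than the peak lists, so it gave names and order and no peak was assigned to a gene. Genes of a histone class resemble each other in sequence, to a degree that was not measured here. How reads matching several copies were treated is not given in the sources used here.

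The histone genes of the runs share promoter sequence elements, and the promoters below show them for each class. RefSeq promoters were matched for 48 of the 53 histone genes (not for H2AC12, H3C11, H3C12, H4C1 and H4C3). Among the 250 bases before the start of each gene, the TATA box sequence TATAAA was found on either strand in 31 of 48 (64.6%), against 10.7% of all 35116 RefSeq promoters. CCAAT was found in 41 of 48 (85.4%), against 32.0% of all promoters, and at least 2 copies in 31 of 48, against 9.53%. All 10 H2A, 14 H2B, 8 H3 and 6 H1 promoters held CCAAT, but 3 of 10 H4 promoters did. The octamer ATTTGCAT, which POU-domain factors such as POU2F1 bind, was found in 20 of 48 (41.7%), against 1.63% of all promoters. It was present in 11 of 14 H2B promoters, 8 of 10 H2A promoters and 1 of 8 H3 promoters, that of H3C4, and in none of the 6 H1 or 10 H4 promoters. Each motif was searched alone, and matches of different motifs were counted even where they could share bases. Of the 48 promoters, 17 share bases with another one of any class. This was counted over whole RefSeq promoter records, which may reach beyond the 250 bases searched. H2A and H2B genes often lie head to head and can count the same octamer. A match is a description of the sequence and not a site of binding. The promoters shown are an H2A and H2B pair that lies head to head (H2AC11 and H2BC11), a western H2B gene (H2BC3), and an H3, an H4 and an H1 gene. Each line gives the 150 bases before the gene's start, 5′ to 3′, from RefSeq on GRCh38.p14, with the matches of these 3 motifs on either strand in capitals. The bases shown for H4C9 hold CCAAT, found in 3 of 10 H4 promoters, and no TATAAA, found in 6 of 10. H2AC11 is counted with an octamer, but its match lies in the 250 bases searched and outside the 150 shown.
H2AC11, chr6:27132893-27133042, plus strand: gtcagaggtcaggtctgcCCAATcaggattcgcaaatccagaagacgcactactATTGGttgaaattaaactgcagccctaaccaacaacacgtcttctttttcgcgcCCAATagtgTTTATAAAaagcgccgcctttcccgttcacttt
H2BC11, chr6:27132796-27132945, minus strand: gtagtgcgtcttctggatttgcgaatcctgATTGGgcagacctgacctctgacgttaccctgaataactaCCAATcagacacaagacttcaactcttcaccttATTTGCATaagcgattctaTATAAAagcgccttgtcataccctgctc
H2BC3, chr6:26043714-26043863, minus strand: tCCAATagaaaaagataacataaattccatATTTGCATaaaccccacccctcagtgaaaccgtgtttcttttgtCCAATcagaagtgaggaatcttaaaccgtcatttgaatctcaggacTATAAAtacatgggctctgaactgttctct
H3C1, chr6:26020301-26020450, plus strand: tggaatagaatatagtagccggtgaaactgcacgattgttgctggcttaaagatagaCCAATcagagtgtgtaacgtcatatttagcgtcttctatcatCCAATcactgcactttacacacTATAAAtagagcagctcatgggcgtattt
H4C9, chr6:27139132-27139281, plus strand: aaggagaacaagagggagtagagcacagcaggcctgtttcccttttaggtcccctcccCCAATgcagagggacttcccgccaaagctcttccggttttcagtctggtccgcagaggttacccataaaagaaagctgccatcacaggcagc
H1-1, chr6:26017788-26017937, minus strand: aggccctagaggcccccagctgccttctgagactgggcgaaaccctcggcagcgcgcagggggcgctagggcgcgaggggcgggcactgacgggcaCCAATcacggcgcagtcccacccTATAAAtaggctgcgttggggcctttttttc

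H3K27ac covered more of both histone blocks than of the middle stretch, and all wide regions lay in the blocks. The western block held 18 regions, 60 per Mb, which covered 24.8% of its length. The eastern block held 17, 21.25 per Mb, which covered 10.5%, and the middle stretch held 15, 18.75 per Mb, which covered 2.99%. The rest of chromosome 6 held 5.78 regions per Mb with 1.10% covered. Regions were widest in the western block, at 3265.5 bp in the median and 2187.5 to 5827.75 bp between the quartiles. The median was 1019 bp (695.5 to 1627.5 bp) in the middle stretch, 1245 bp (870 to 2643 bp) in the eastern block and 1481 bp (893.75 to 2274.75 bp) in the rest of chromosome 6. At least 5 kb was reached by 6 of 18 western, 4 of 17 eastern and 0 of 15 middle regions, against 4.89% of all H3K27ac regions. For the 10 of 35 in both histone blocks, 28.6%, the exact Clopper-Pearson 95% interval was 14.6 to 46.3%. For the middle stretch it reached up to 21.8%. At least 10 kb was reached by 4 regions, all in the histone blocks, against 0.772% of all regions. All such intervals cover counting error only and treat neighbouring regions as independent.

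**Figure D1:**
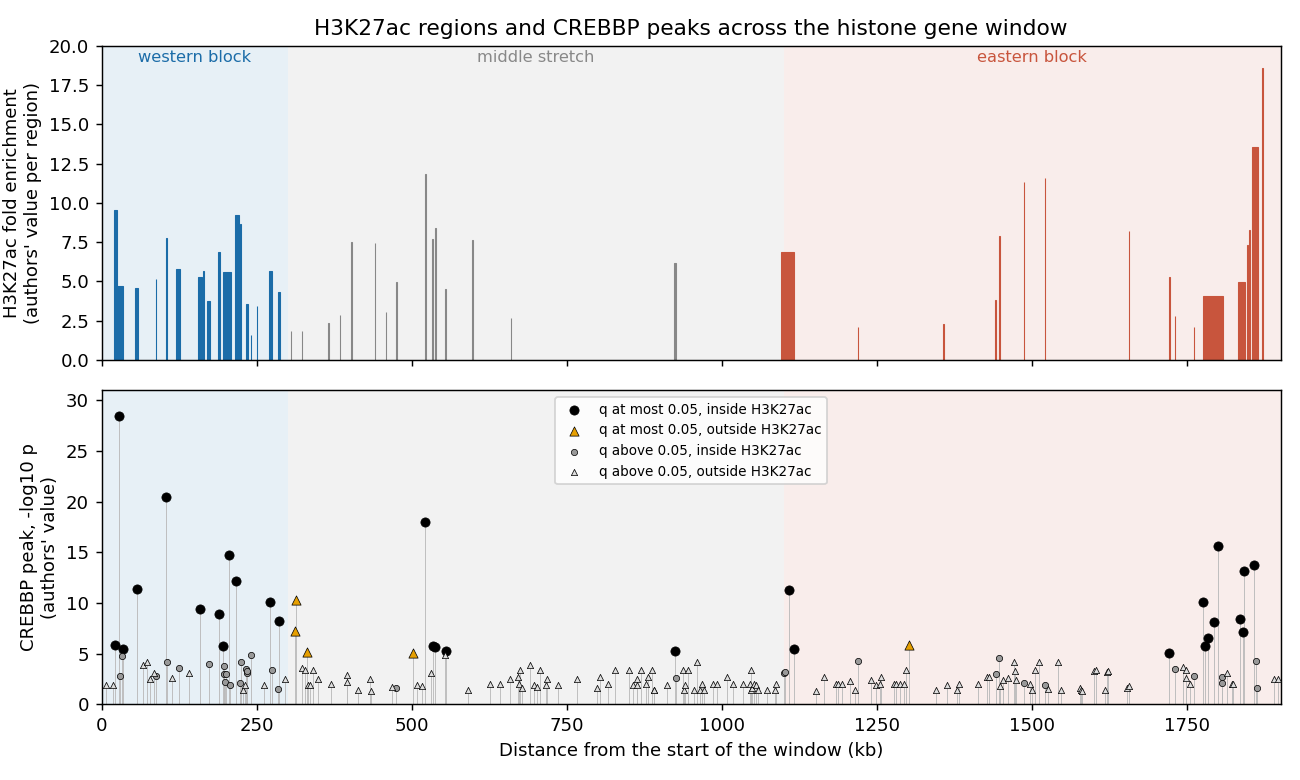
H3K27ac regions (upper panel, the authors' fold enrichment) and CREBBP peaks (lower panel, the authors' −log10 p) against distance in kb from the start of the window, with the 3 stretches shaded. Wide regions stand in the western block and at both ends of the eastern block. High CREBBP peaks stand there and in the middle stretch, where one reaches a −log10 p of 18.0, and 5 CREBBP peaks with q of at most 0.05 lie outside H3K27ac (orange triangles).

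The median width set apart the western block only, while regions of at least 5 kb lay in both histone blocks. Fold enrichment is the ratio of ChIP signal to expected background, given by the authors' peak caller as a mean over each region. It followed neither pattern and had its highest median in the eastern block. Its median was 5.45 (interquartile range 4.39 to 6.61) in the western block, 4.99 (2.77 to 7.57) in the middle stretch and 6.86 (3.78 to 8.28) in the eastern block. In the rest of chromosome 6 it was 5.12 (3.12 to 8.03). The stretches therefore overlapped in fold over most of their range.

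In bins of 100 kb the H3K27ac cover had 3 centres. All 3 western bins, with 18.8, 27.9 and 27.6 kb covered, were in the upper 1% of the 27753 bins that hold an interval of either list, which needed 15.3 kb. So were the first eastern bin (15.9 kb) and the last pair (27.3 and 34.2 kb). This made 6 of 19 bins of the window, against 1.00% of all bins by construction, and the last bin ranked 22nd of all. The 5 eastern bins between these centres held 0.266 to 3.72 kb each. The eastern block was thus a pair of dense ends around a sparse stretch, as the order of histone genes in RefSeq also has groups of histone genes at both ends of the eastern run. Of the 19 bins, 6 held at least 4 CREBBP peaks at or below a q of 0.05, against 0.259% of all bins. These were the 3 western bins with 4 each, the last pair of eastern bins with 6 and 4, and a bin of the middle stretch from 26.5 to 26.6 Mb with 5.

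**Figure D2:**
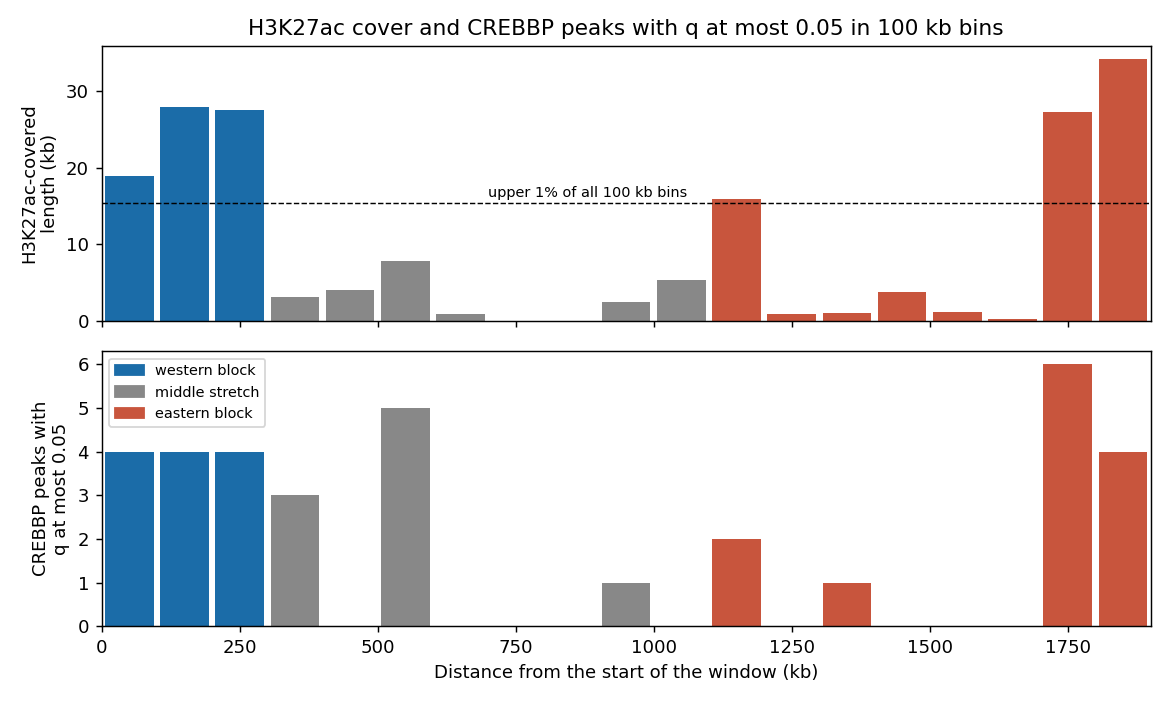
Length covered by H3K27ac in kb (upper panel) and number of CREBBP peaks with q of at most 0.05 (lower panel) in the 19 bins of 100 kb, against distance in kb from the start of the window. The dashed line marks the upper 1% of all bins at 15.3 kb, which 6 bins pass, 3 in the western and 3 in the eastern block.

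Among the western regions the widest, 13176 bp from 26195067 to 26208242, had an H3K27ac fold of 5.60 and held 7 CREBBP peaks, of which 2 had a q no higher than 0.05. It ranked 60th in width among all 18263 regions. The region from 26025465 to 26034730 spanned 9266 bp at a fold of 4.70 and held 4 CREBBP peaks, again with 2 at or below that q. The next 3 in width were much alike. The region from 26120490 to 26126613 spanned 6124 bp at a fold of 5.77, and its single CREBBP peak had a q above 0.05. The region from 26155147 to 26161085 spanned 5939 bp at a fold of 5.30 and held 1 CREBBP peak, with q of at most 0.05. The region from 26215124 to 26220973 spanned 5850 bp and held 1 of that strength. At 9.22 it also had the second highest fold of the block, between 9.53 at 26020600 to 26024058 and 8.64 at 26222116 to 26224278.

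Joining regions across gaps of at most 12500 bp gave 8 western domains from 18 regions. The largest spanned 62.8 kb from 26188130 to 26250937, with 28.6 kb covered by 7 regions and 15 CREBBP peaks inside them. By covered length it ranked 35th of 13232 domains. In the whole window 6 of 32 domains were in the upper 5% by covered length. All 6 lay in the histone blocks, since the largest of the 13 middle domains, at 5.04 kb covered, ranked 1426th.

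The eastern block held the widest region of the window, 33491 bp from 27774440 to 27807930, which ranked 3 of all H3K27ac regions in width at a fold of 4.07. A region of 21253 bp from 27094643 to 27115895 had a fold of 6.86 and ranked 12th in width. It starts before the limit at 27.1 Mb, so 5.36 kb of it counts in the cover of the middle stretch. The region from 27832151 to 27843531 spanned 11381 bp at a fold of 4.97. The region from 27854661 to 27864241 was as wide as 9581 bp and still had a fold of 13.6. The highest fold of the window, 18.6, belonged to a region of 1273 bp from 27870314 to 27871586, which ranked 435th of all regions in fold. These last 2 lay 6.07 kb apart at the eastern end. The fifth in width, 2643 bp from 27845719 to 27848361, had a fold of 7.33. The third in fold, 11.6, was a region of 1123 bp from 27520062 to 27521184, inside the sparse stretch.

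In the middle stretch the widest region was 2529 bp, from 26536703 to 26539231, with a fold of 8.41. The region from 26520618 to 26522496, 1879 bp wide, had the highest fold of the stretch, 11.9. Regions of 2516 bp (26923209 to 26925724), 1656 bp (26473904 to 26475559) and 1599 bp (26596244 to 26597842) had folds of 6.15, 4.99 and 7.62. The third in fold, 7.73, was a region of 627 bp from 26533154 to 26533780. Before and after 26923209 to 26925724, the only region in that part, lay the longest gaps of the window without H3K27ac, 262.8 and 168.9 kb. The first gap held 27 CREBBP peaks (103 per Mb) and the second 24 (142 per Mb). None of them had q of at most 0.05, which only 1.81% of all CREBBP peaks reached. The median fold of these gap peaks was 2.17 in both gaps, with 5 and 4 fragments at the median summit.

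**Figure D3:**
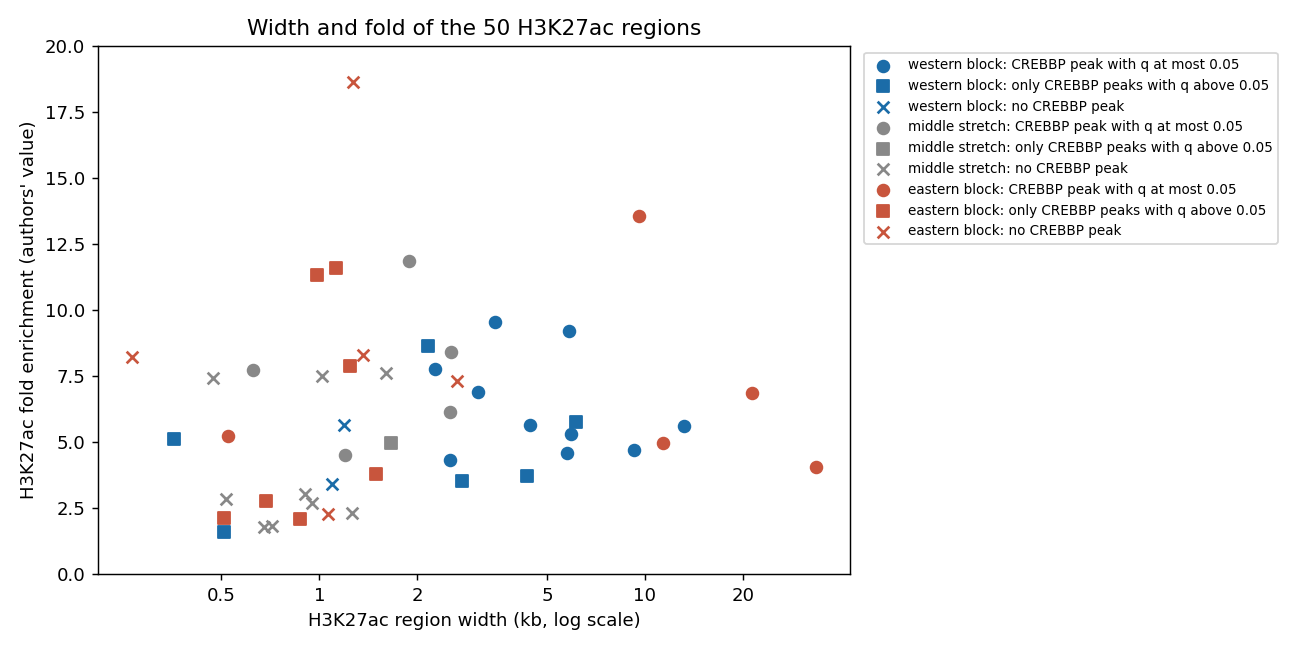
H3K27ac fold enrichment against region width in kb (log scale) for the 50 regions, coloured by stretch, with the symbol giving the CREBBP peaks they hold. The regions of at least 5 kb, up to 33491 bp, are all from the histone blocks, and the region with the highest fold, 18.6, holds no CREBBP peak.

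Among the stretches, CREBBP peaks were densest in the western block, and the share of them with a low q was highest there. There were 43 peaks in the western block (143 per Mb), 83 in the middle stretch (104 per Mb) and 81 in the eastern block (101 per Mb), against 78.2 per Mb in the rest of chromosome 6. A high density of all listed peaks was not particular to stretches rich in H3K27ac. The middle gaps of 262.8 and 168.9 kb without H3K27ac held 103 and 142 per Mb, none with q of at most 0.05. Long gaps of the eastern block held 68.0 to 89.4 per Mb. Since the deposited list keeps every peak with p of at most 0.05, whatever its q, peaks that also had q of at most 0.05 were counted alone. These numbered 12 of 43 in the western block (27.9%, 95% interval 15.3 to 43.7%), 9 of 83 in the middle stretch (10.8%, 5.08 to 19.6%) and 13 of 81 in the eastern block (16.0%, 8.83 to 25.9%). Of all CREBBP peaks, 1.81% reached this q. Per Mb they numbered 40, 11.25 and 16.25, against 1.05 in the rest of chromosome 6. In the window the peak nearest in q that failed this limit had a fold of 2.99 and the nearest that passed 3.19. Fold did not separate the 2 kinds, since passing folds began at 2.38 and failing folds reached 3.47.

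Most CREBBP peaks of the western block lay in H3K27ac, and few of the middle stretch did. An overlap of at least 1 bp was found for 31 of 43 western peaks, 72.1% (95% interval 56.3 to 84.7%). It was found for 25 of 81 eastern peaks, 30.9% (21.1 to 42.1%), and for 7 of 83 middle peaks, 8.43% (3.46 to 16.6%). The eastern share joined unlike parts, which were chosen after their values were seen. They were 4 of 9 peaks in the first 100 kb, 16 of 25 in the last 200 kb and 5 of 47 in the 500 kb between. Of all CREBBP peaks 5.06% overlapped a region. The order of the stretches followed the share of their length that H3K27ac covers, 24.8, 10.5 and 2.99%, against 1.12% over all chromosomes. More overlap thus went with more cover, and the shares were not corrected for cover. Among peaks with q of at most 0.05, all 12 western (73.5 to 100%), 12 of 13 eastern (64.0 to 99.8%) and 5 of 9 middle peaks (21.2 to 86.3%) overlapped a region, against 56.5% of all such peaks. One of the 12 eastern peaks, from 27720750 to 27721334, met its region with its flank, and its summit lay outside.

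Seen from the mark, 16 of 18 western regions held a CREBBP peak, 88.9% (65.3 to 98.6%). This was so for 12 of 17 eastern regions, 70.6% (44.0 to 89.7%), and for 6 of 15 middle regions, 40% (16.3 to 67.7%), against 49.0% of all regions. Restricted to peaks with q of at most 0.05, this held for 10 of 18 western, 5 of 17 eastern and 5 of 15 middle regions, against 11.4% of all regions. The wide regions of the window nearly all held such a peak. All 10 regions of at least 5 kb in the window held a CREBBP peak and 9 held one with q of at most 0.05 (90%, 55.5 to 99.7%), against 352 of 883 outside the window (39.9%, 36.6 to 43.2%). Their median width was 9.42 kb, against 6.55 kb outside, so the sets also differ in width. Per kb of these regions there were 0.148 peaks of that strength in the window and 0.0621 outside, while all CREBBP peaks numbered 0.263 and 0.240 per kb.

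Regions with no CREBBP peak were narrow but not all weak, and narrow width was not particular to them. In both histone blocks the 15 regions with a CREBBP peak of q at most 0.05 had a median width of 5.85 kb (0.523 to 33.5 kb) and a median H3K27ac fold of 5.60 (4.07 to 13.6). The 13 regions with only CREBBP peaks of q above 0.05 were about as narrow at the median, 1.12 kb, with a median fold of 3.78. The 7 regions with no CREBBP peak had a median width of 1.19 kb (0.266 to 2.64 kb) and a median fold of 7.33 (2.30 to 18.6). These 7 include the 3 regions from 27845719 to 27848361, 27849415 to 27850779 (fold 8.28) and 27870314 to 27871586 (fold 18.6), all at the eastern end. In the middle stretch the 9 regions without a CREBBP peak had a median fold of 2.85 (1.80 to 7.62), against 7.73 (4.50 to 11.9) for the 5 with a strong one.

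Many CREBBP peaks inside H3K27ac in the histone blocks were broad. At least 1 kb was reached by 13 of 43 western, 13 of 81 eastern and 2 of 83 middle peaks, against 1.71% of all CREBBP peaks. Among peaks inside H3K27ac, 25 of 63 in the window reached 1 kb, 39.7% (27.6 to 52.8%), against 751 of 10840 outside the window, 6.93% (6.46 to 7.42%). Their median width was 845 bp in the western block (interquartile range 364.5 to 1410 bp), 874 bp (535 to 1308 bp) in the eastern block and 466 bp in the middle stretch. Peaks outside H3K27ac in the window had a median of 351.5 bp, close to the 358 bp of all such peaks. The widest peak of the window, 2749 bp from 26156427 to 26159175, had a fold of 2.94.

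The number of fragments at each summit and the expected background were solved from the deposited fold and p, as inferences from those values. Inside H3K27ac the median summit had 22 fragments over a background of 7.39 in the western block, 29 over 10.2 in the eastern block and 18 over 5.54 in the middle stretch. In the rest of chromosome 6 it had 15 over 5.73. Outside H3K27ac in the window the median was 5 fragments over a background of 1.37. Among the stretches fragments and background thus moved together. The median fold differed less, at 2.64, 2.48 and 2.68 inside the western, eastern and middle H3K27ac regions. Inside H3K27ac in the rest of chromosome 6 the median fold was lower, at 2.23. How far the background sets which peaks reach a given q was not tested.

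**Figure D4:**
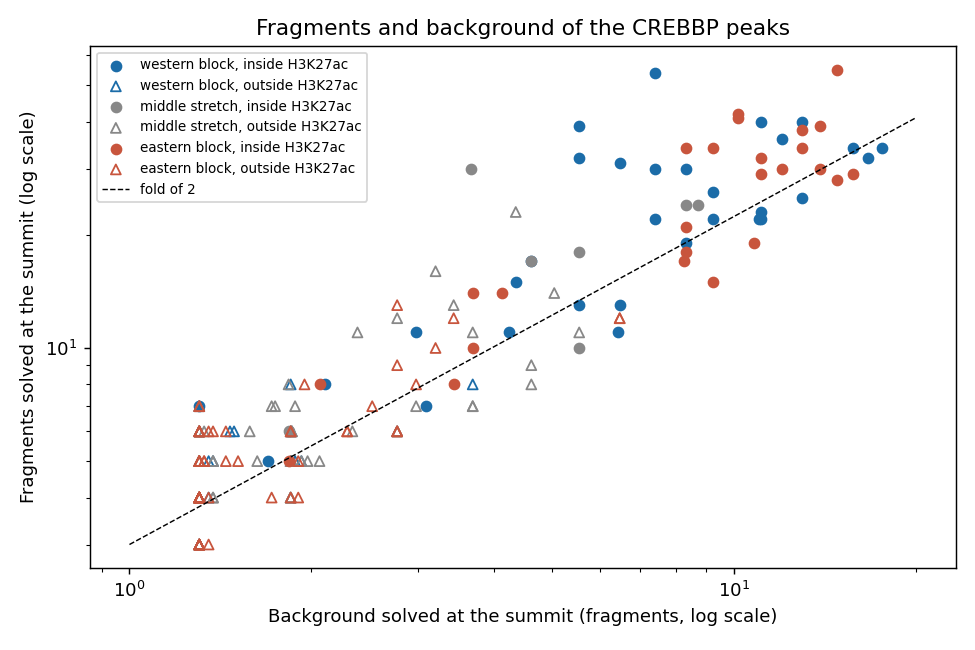
Fragments at the summit against expected background, both solved from the deposited values and on log axes, for the 207 CREBBP peaks, with the stretch by colour and filled circles for peaks inside H3K27ac. Peaks inside H3K27ac reach 55 fragments over backgrounds of up to 17.6, and most peaks outside sit near 5 fragments over 1.37. The dashed line marks a fold of 2.

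The strongest CREBBP peak of the western block and of the window by p lay from 26026605 to 26028131, with 54 fragments over a background of 7.39, a fold of 6.55 and a −log10 p of 28.5. It ranked 117th of all CREBBP peaks by p. The second western peak, from 26103958 to 26104802, had 39 fragments over 5.54 and a fold of 6.11. The third, from 26204598 to 26206086, had 32 over 5.54 and a fold of 5.04. The fourth, from 26215416 to 26217699, and the fifth, from 26055413 to 26056836, had folds of 4.29 and 3.39. All 5 lay inside H3K27ac regions, of which 4 span more than 5 kb.

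The strongest eastern CREBBP peaks by p had as many fragments but lower folds. The strongest by p, from 27798122 to 27799474, had 55 fragments over 14.8 and a fold of 3.55. The second, from 27857396 to 27858703, had 42 over 10.2 and a fold of 3.85, the highest of the eastern block. The third, from 27840743 to 27841560, had 41 over the same background and a fold of 3.76. The fourth, from 27106854 to 27107873, had 34 over 8.31, and the fifth, from 27774795 to 27776602, had 34 over 9.24. No eastern peak therefore reached the folds of the 4 strongest western peaks by p, which were 4.29 to 6.55.

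CREBBP was spread along the widest regions rather than held at 1 point. In the 33491 bp region summits lay 1.77, 3.47, 7.95, 17.6, 24.9, 31.1 and 31.7 kb from its start. The first 5 of them had q of at most 0.05 and 29 to 55 fragments, and the last pair had −log10 q of 0. In the 11381 bp region all 3 peaks, at 2.59, 7.66 and 9.02 kb, had q of at most 0.05. In the 21253 bp region the peaks at 12.48 and 20.4 kb passed, and those at 5.69 and 6.30 kb had folds of 1.80 and 1.84 over backgrounds of 15.7 and 14.8. The western 13176 bp region held 7 summits between 0.707 and 12.6 kb, of which those at 0.707 and 9.93 kb passed. Its peak with the most fragments, 34 at 2.39 kb over a background of 17.6, did not pass and had a fold of 1.89.

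**Figure D5:**
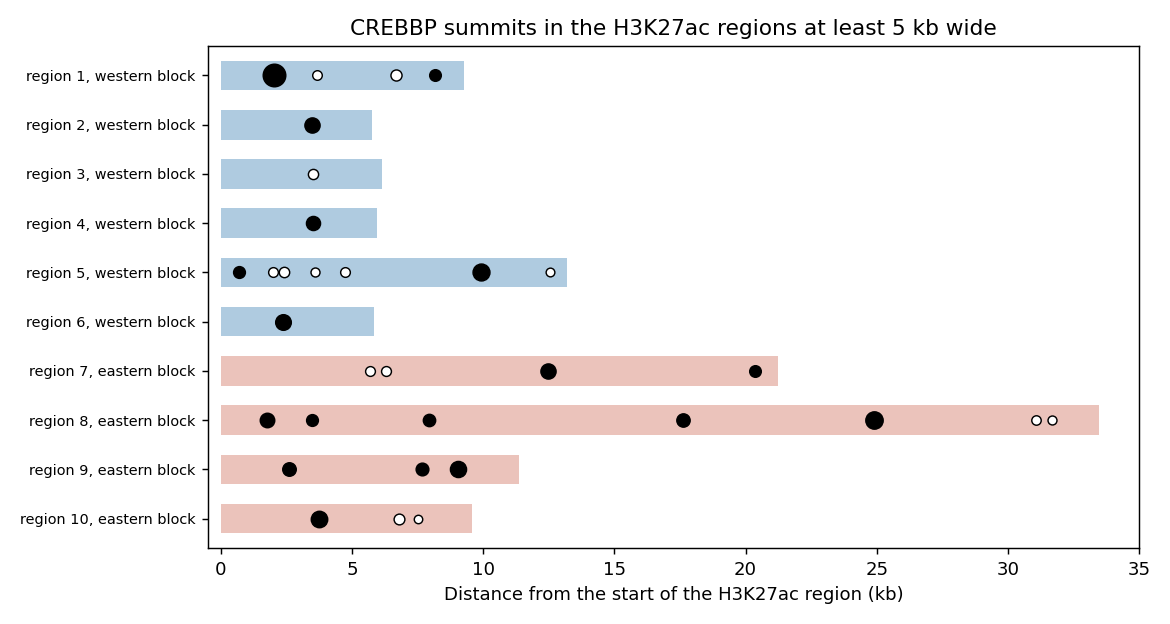
CREBBP summits (circles, larger for a larger −log10 p, filled for q of at most 0.05) along the 10 H3K27ac regions of at least 5 kb, in order along the chromosome, against distance in kb from the start of each region. Region 8, the widest at 33491 bp, holds 7 summits, and region 3 is the only one with no filled circle.

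The middle stretch held the strongest peak outside the histone blocks, from 26520983 to 26521793, with 30 fragments over 3.67, a fold of 6.64 and a −log10 p of 18.0. This was the highest fold of the window, inside the H3K27ac region that also had the highest fold of the stretch. The next pair by p, from 26313082 to 26313755 (23 fragments, fold 4.48) and from 26311886 to 26312273 (16 fragments, fold 4.04), lay outside H3K27ac, 7.38 and 6.18 kb from the nearest region. The fourth and the fifth, from 26533048 to 26533513 and from 26537372 to 26538558, lay inside H3K27ac with folds of 3.20 and 2.68. The other strong peaks inside H3K27ac here, from 26554270 to 26554677 and from 26924171 to 26924860, had folds of 2.90 and 2.58.

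CREBBP peaks with q of at most 0.05 outside H3K27ac were narrower at the median than those inside it, 441 against 1187 bp. The histone blocks held few such peaks outside H3K27ac. Of 34 peaks of that q in the window, 5 lay outside H3K27ac, 4 of 9 in the middle stretch and 1 of 13 in the eastern block, in its sparse part. The share inside H3K27ac was 85.3% in the window and 55.6% in the middle stretch, against 56.5% of all such peaks. The middle stretch was thus near the share of all such peaks. The widths of the 5 outside were 322 to 779 bp, with 11 to 23 fragments over backgrounds of 2.38 to 4.35 and folds of 3.45 to 4.48. Besides the pair just given they lay from 26330414 to 26330735 (7.69 kb from H3K27ac), from 26502327 to 26502767 (17.9 kb) and from 27300555 to 27301333 (54.8 kb). The first 3 began 11.9, 13.1 and 30.4 kb after the start of the middle stretch. The 29 peaks of that q inside H3K27ac had a median width of 1187 bp, 32 fragments and a background of 8.71. No annotation of hg19 was used, so whether these 5 lie at tRNA genes was not tested.

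The remaining 139 peaks outside H3K27ac had q above 0.05 and 3 to 14 fragments, and 105 of them had a −log10 q of 0. Their median fold of 2.17 is that of 4 fragments over the commonest background of the list, 1.304. The other 34 peaks inside H3K27ac with q above 0.05 had 5 to 34 fragments over a median background of 7.36 and a median fold of 2.06. In the western block no peak outside H3K27ac had more than 8 fragments, and all 12 lay within 13.8 kb of a region. In the middle stretch 18 of 72 such peaks lay more than 50 kb from one. Gaps between western regions were at most 28.7 kb, and the longest middle gaps were 262.8 and 168.9 kb. The spacing of the regions thus limits these distances, which say little about CREBBP itself.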

How the data were processed

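ChIP-seq of SC1 cells was analysed from 2 peak lists, 1 sample per antibody. MACS2, Bowtie2, STAR and fastp are named with hg19 in the submitters' processing notes, and the sources used here do not give their settings, the control or any pooling. The authors deposited, per interval, a fold enrichment (a ratio), −log10 p and −log10 q values and a score (not used), and CREBBP summits. Library depth is unknown.

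Intervals on chromosomes 1 to 22 and X were kept (128 CREBBP peaks and 17 H3K27ac regions left out). Members overlap the window, and the limits of the stretches are those of the rule that defines it. Overlap meant at least 1 bp. Shares carry exact Clopper-Pearson 95% intervals. No test across groups was made. Fragments n and background b were solved from fold = (n + 1)/(b + 1) and p as the Poisson chance of more than n fragments, within 0.001 of −log10 p, for 215580 CREBBP peaks (99.99%). Named intervals are, per stretch, the 5 widest and 3 highest-fold H3K27ac regions, the 5 CREBBP peaks of smallest p, and all CREBBP peaks of q at most 0.05 outside H3K27ac. Others were chosen after their values were seen, as were the 5 and 10 kb width limits, the 1 kb limit, the limit of 4 peaks per bin and the motifs. The members and lists were chosen with earlier results of these data known. Overlap and solution were tested on simulated data. Alternatives were other overlaps, stronger peaks, moved limits and other joining distances. Python 3.11.15, numpy 2.4.6, pandas 2.3.3, scipy 1.17.1 and matplotlib 3.10.9 were used.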

Additional observations from a re-analysis of the deposited data

How the results depend on the processing

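Of 66 alternative values for 21 results, 49 stayed within the interval of the share, or within 1.5 times the count or cover, and 17 did not. The share of CREBBP peaks in H3K27ac became 100% in the western block, 55.6% in the middle stretch and 92.3% in the eastern block with q of at most 0.05. Against the H3K27ac regions in the upper 50% by q, that share was 53.5% in the western and 16.0% in the eastern block. The share of regions holding a CREBBP peak became 55.6% (western) and 29.4% (eastern) with CREBBP peaks of q at most 0.05. With the upper 50% of regions by q, 11 western, 9 middle and 10 eastern regions were left, and the eastern cover was 5.72%. The upper 50% of CREBBP peaks by p left 52 in the middle stretch, and a q of at most 0.01 left 3 there. Placing regions by any overlap gave the middle stretch a cover of 4.97%, as the region at its eastern limit then counts in full. Joining within 5 kb gave 13 western domains, and joining within 25 kb gave 3 western and 6 middle domains. The lower counts of regions and peaks follow from keeping fewer intervals, and the cause of the changes in the shares was not tested. The western block kept the highest and the middle stretch the lowest share of CREBBP peaks in H3K27ac under every overlap setting run. For the share of regions holding a CREBBP peak, the order of the middle stretch and the eastern block was not kept. With the upper 50% of regions by q it was 66.7% in the middle stretch and 60% in the eastern block. With CREBBP peaks of q at most 0.05 it was 33.3% and 29.4%. Library depth is unknown, and few fragments per summit limit which CREBBP peaks can reach a given q. No paired analysis was possible because there was only 1 sample for each antibody.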
